A study of Mus musculus with 4 samples.

Results

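Cytochrome *c* oxidase subunits were followed through the germ cells of the juvenile mouse testis, with testis isoforms set beside their somatic counterparts. The set held 9 genes of the 32285 counted in single-cell RNA libraries, found by symbol. It was chosen by the UMI levels of *Cox8a*, which differed between genotypes in late spermatogonia in an earlier reading of these data, so the genotype values of *Cox8a* are given as a description only, in every stage, since all stages come from the same 4 libraries. Each library was made from 1 testis of a pup at postnatal day 15, and each of 2 batches paired a wild-type pup with a littermate homozygous for the *Meioc* null allele tm1.1Dpc (labelled Meioc KO, called *Meioc*-null here) on C57BL/6N. All 4 pups, wild-type ones included, were also heterozygous for *Hspa2* tm1Dix and homozygous for a *ROSA26-tdTomato* reporter with its stop cassette intact. MEIOC is a germ-cell protein required for normal progress through meiotic prophase. With 2 libraries a group, p-values of the genotype tests within a stage measure the spread between these pups.

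Cytochrome *c* oxidase, or complex IV, is the last enzyme of the mitochondrial respiratory chain, which takes electrons from cytochrome *c*, passes them to oxygen and pumps protons. Its catalytic core is encoded by mitochondrial DNA, and the smaller nuclear-encoded subunits around the core adjust its stability and activity. Several of these exist as tissue isoforms, and male germ cells carry versions of their own. *Cox6b2*, *Cox7b2* and *Cox8c* are the testis isoforms of *Cox6b1*, *Cox7b* and *Cox8a*. The list also held *Cox4i1*, a regulatory subunit, and *Cox6a1* and *Cox7a2*, the forms of their subunits found in most tissues.

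On GRCm38 the testis isoforms lie on autosomes, *Cox6b2* (ENSMUSG00000051811) on chromosome 7 from 4751792 to 4753094, *Cox7b2* (ENSMUSG00000049387) on chromosome 5 from 71442824 to 71548205 and *Cox8c* (ENSMUSG00000043319) on chromosome 12 from 102899316 to 102900526. Of their counterparts, *Cox6b1* (ENSMUSG00000036751) is on chromosome 7 from 30616861 to 30626151 and *Cox8a* (ENSMUSG00000035885) on chromosome 19 from 7215153 to 7217616. *Cox7b* (ENSMUSG00000031231) is on the X chromosome from 106015700 to 106022450, a chromosome that is silenced in pachytene spermatocytes, as background. *Cox4i1* (ENSMUSG00000031818) lies on chromosome 8 and overlaps 1 annotated gene on each strand, so its counts are uncertain to that extent. *Cox6a1* (ENSMUSG00000041697) on chromosome 5 and *Cox7a2* (ENSMUSG00000032330) on chromosome 9 overlap no annotated gene.

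The promoters of *Cox8a* and *Cox7b* are shown because the first chose the set and the groups of the second did not overlap in stages 6 to 9. Those of *Cox6b2* and *Cox7b2* are shown because these testis isoforms were higher in wild-type stage 11 than in stage 1, while *Cox8a* and *Cox7b* were lower. The sequences are from RefSeq (GRCm38.p6) and run from 250 bases before to 50 bases after the annotated start, in the direction of the gene. *Cox8a* is chr19:7217567-7217866 (minus strand), *Cox7b* is chrX:106015450-106015749 (plus strand), *Cox6b2* is chr7:4753045-4753344 (minus strand) and *Cox7b2* is chr5:71548156-71548455 (minus strand), and capitals mark a match to the letters GGCGGGA.
Cox8a: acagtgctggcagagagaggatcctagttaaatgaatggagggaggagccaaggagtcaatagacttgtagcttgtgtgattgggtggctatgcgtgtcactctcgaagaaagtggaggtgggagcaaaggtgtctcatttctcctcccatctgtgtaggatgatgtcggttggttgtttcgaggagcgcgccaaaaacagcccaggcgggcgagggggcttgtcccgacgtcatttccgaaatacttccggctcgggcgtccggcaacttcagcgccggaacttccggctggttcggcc
Cox7b: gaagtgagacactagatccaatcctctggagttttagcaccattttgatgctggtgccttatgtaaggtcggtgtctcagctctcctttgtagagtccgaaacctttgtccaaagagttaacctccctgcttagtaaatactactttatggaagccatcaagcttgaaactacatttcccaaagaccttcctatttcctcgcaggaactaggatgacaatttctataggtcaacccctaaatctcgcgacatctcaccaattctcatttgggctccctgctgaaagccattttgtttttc
Cox6b2: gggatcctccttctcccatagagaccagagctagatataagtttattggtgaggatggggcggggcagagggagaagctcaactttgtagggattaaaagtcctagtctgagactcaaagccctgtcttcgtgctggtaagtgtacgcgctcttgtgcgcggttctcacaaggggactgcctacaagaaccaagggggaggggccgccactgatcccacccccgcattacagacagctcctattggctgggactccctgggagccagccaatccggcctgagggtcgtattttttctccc
Cox7b2: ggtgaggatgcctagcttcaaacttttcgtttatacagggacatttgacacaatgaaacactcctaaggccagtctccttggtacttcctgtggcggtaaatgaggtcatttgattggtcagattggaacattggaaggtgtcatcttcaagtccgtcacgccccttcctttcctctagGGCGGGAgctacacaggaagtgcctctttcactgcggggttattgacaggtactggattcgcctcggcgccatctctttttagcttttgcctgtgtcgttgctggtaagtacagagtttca

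The letters searched, on both strands, were GGCGGGA (E2F6), CACGTG (the E-box of MGA and MAX), CNCCTCAG (STRA8), TAACNG (MYB) and GCATGCGC (NRF1). Among all 32851 promoters of that length, GGCGGGA was in 11.3%, CACGTG in 7.15%, CNCCTCAG in 7.94%, TAACNG in 23.3% and GCATGCGC in 2.71%. A promoter was given for 7 of the 9 members, all but *Cox8c* and *Cox4i1*, and 2 of the 7 held a match. *Cox7b2* had GGCGGGA once, and *Cox6a1* had it on the other strand together with GCATGCGC, whose matches on both strands overlapped. None of these letters was in the windows of *Cox8a*, *Cox7b*, *Cox6b1*, *Cox6b2* or *Cox7a2*. A match is a description of the letters, not a binding site.

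Germ cells fell into 11 clusters, called stages here and numbered from the undifferentiated end. Stage 1 was undifferentiated-spermatogonia-like (6 of 7 markers detected), stages 2 to 6 were differentiating-spermatogonia-like with stage 6 the latest, stages 8 to 10 were early-spermatocyte-like and stage 11 was pachytene-like (5 of 8 markers). Stage 6 also detected 3 of 4 preleptotene markers, in 67.7% of cells on average against 57.2% for differentiating ones. Stage 11 had 2 pachytene markers among its 10 leading genes and stage 10 had 0, although stage 10 also detected 5 of 8. Early-spermatocyte markers were in more cells of stage 11 (78.7% against 63.75%). Stage 7 detected 4 of 4 preleptotene markers (77.6% of cells) and 6 of 8 early-spermatocyte markers (60.95%). With 1 of each class among its 10 leading genes, it stayed unnamed. The members and other complex IV genes were kept out of the clustering. Stages 1 to 9 held at least 212 cells in each library, but *Meioc*-null cells numbered 1 and 4 in stage 10 and 0 in stage 11, so the last 2 stages describe wild-type only. Levels are UMIs (unique molecular identifiers, 1 per captured 3′ end) per 1000000 UMIs summed over a stage and library, written as CPM, which needs no scaling by length. The sums of the tested stages held 2565299 to 22395701 UMIs, and fewer cells of a kind and less RNA per cell cannot be told apart in them.

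In wild-type germ cells the 3 testis isoforms were lower in the spermatogonia-like stages than in stage 11, where each reached its highest level. *Cox6b2*, the testis form of the subunit that bridges the enzyme dimer, stood at 30.9 and 30.3 CPM in stage 1 (wild-type replicates 1 and 2). It passed through 108 and 110.2 in stage 4 and fell to its lowest, 21.1 and 14.6, in stage 8. It then climbed to 53.9 and 51.0 in stage 9, 365 and 433 in stage 10 and 1432 and 1471 in stage 11. The stage 8 level was below that of wild-type Sertoli cells (23.9 and 22.2) and is not read as expression. Those Sertoli cells were shallower, at a median of 2314 and 3596 UMIs against 10284 and 9930.5 in stage 8, and the part of depth was not tested. Of 10 neighbouring pairs in the order of its stage means only stages 2 and 9 overlapped between libraries.

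*Cox7b2*, the testis form of subunit 7B, was already present in undifferentiated-like cells, at 145 and 157 CPM in stage 1. It dipped to 62.4 and 56.9 in stage 3 and climbed to 317 and 295 in stage 9 and 1183 and 1097 in stage 11, 19.1 times its lowest mean. *Cox8c*, the testis form of the smallest subunit, stayed low through stage 8. It lay between 17.9 and 38.1 CPM in both wild-type libraries of stages 1 to 8. It then stood at 88.8 and 71.9 in stage 9, 204 and 233 in stage 10 and 2365 and 1743 in stage 11. In the order of its stage means 6 of 10 neighbouring pairs overlapped, all of them among stages 1 to 8, while stages 9, 10 and 11 stood apart from the rest and from each other.

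Somatic cells gave a measure of the background of these isoforms, since free RNA in droplet libraries adds some UMIs to every cell. *Cox8c* measured 17.0 and 19.3 CPM in wild-type Sertoli cells and 3.26 and 3.36 in *Meioc*-null Sertoli cells. In peritubular myoid cells it measured 14.0 and 5.80 in wild-type, against 1.27 and 0.836 in *Meioc*-null. The wild-type levels of *Cox8c* in stages 6 and 7 (21.4 and 19.6, then 21.5 and 17.9) were close to that of Sertoli cells and are not read as expression. Wild-type Sertoli cells were shallower, at a median of 2314 and 3596 UMIs against 11246 and 10414 in stage 6 and 11136.5 and 10459 in stage 7. Wild-type myoid cells, at 9763 and 10069, held less *Cox8c* than these stages in both libraries. The part of depth in this background was not tested. *Cox7b2* in wild-type Sertoli cells, at 15.1 and 20.9, was below its level in every germ-cell stage.

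*Cox6b2* was also found outside the germ line. Myoid cells held 183 and 174 CPM in wild-type, against 150.4 and 158 in *Meioc*-null, above every spermatogonia-like stage, whereas Sertoli cells held 23.9 and 22.2 in wild-type, against 8.16 and 15.1 in *Meioc*-null. After each cell was thinned to 2000 UMIs, 30.8% and 26.2% of wild-type myoid cells had a *Cox6b2* UMI, against 7.72% and 3.46% of Sertoli cells and 91.4% and 90.9% of stage 11 cells. The share in myoid cells thus exceeded that of Sertoli cells at equal depth in both libraries. Unthinned, the shares were 75.6% and 81.1% in myoid, 24.2% and 14.0% in Sertoli and 98.5% and 100% in stage 11 cells, at median depths of 9763 and 10069 UMIs in myoid, 2314 and 3596 in Sertoli and 45216 and 35365 in stage 11 cells. Cells too shallow to be thinned numbered 238 and 80 in wild-type libraries and were 158 and 110 in the others.

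**Figure D1:**
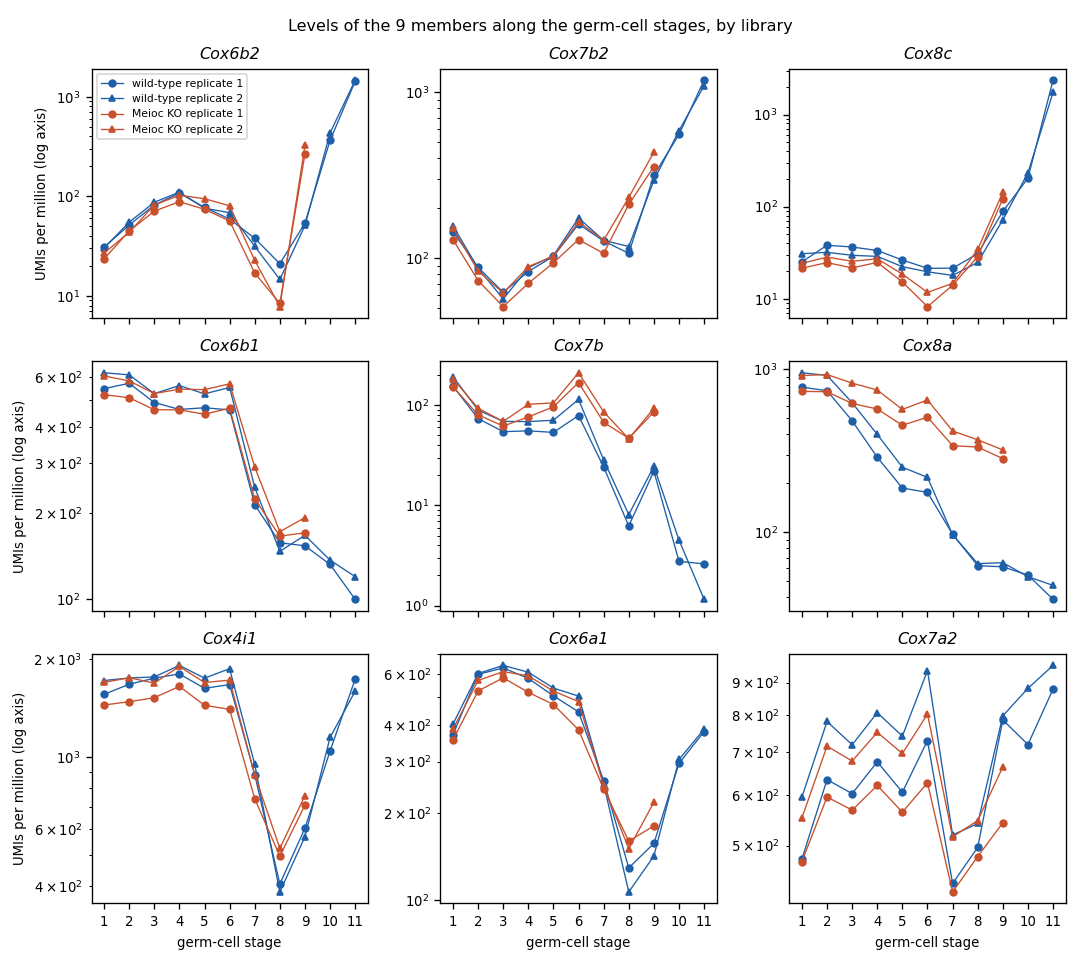
CPM (log axis) of each member against germ-cell stage, 1 line per library (wild-type and *Meioc*-null, replicates 1 and 2), with stages 10 and 11 in wild-type only. The 3 testis isoforms end above 1000, *Cox7b* and *Cox8a* fall along the wild-type stages, and the *Meioc*-null lines of these 2 genes lie above wild-type from stage 4 on.

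The somatic counterparts went the other way in wild-type, each to its lowest level in stage 11. *Cox6b1* held between 460.5 and 621 CPM through stages 1 to 6, stood at 214 and 246 in stage 7 and at 99.8 and 119.8 in stage 11. Its stage 1 mean was 5.32 times that of stage 11. *Cox8a*, the somatic form of the smallest subunit, fell earlier, from 778 and 955 in stage 1 to 176 and 217 in stage 6, 97.3 and 96.6 in stage 7 and 38.8 and 47.2 in stage 11. The order of its wild-type means followed the stage numbers, with overlap between stages 1 and 2, 5 and 6, and 8 and 9, and its range was 20.2-fold.

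*Cox7b*, the X-linked member, had the widest range of the somatic forms, 92.1 times from highest to lowest mean. It stood at 155 and 193 CPM in stage 1, 78.8 and 114 in stage 6, 6.24 and 8.09 in stage 8 and 22.0 and 24.6 in stage 9. In stage 11 it was at 2.61 and 1.16, from 34 and 14 UMIs. The fall was therefore not even, with higher values in stages 6 and 9 than in the stages before them.

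The other three members followed neither course. *Cox4i1* fell from 1673 and 1873 in stage 6 to 406 and 384 in stage 8 and returned to 1738 and 1597 in stage 11. *Cox6a1* fell from 629 and 641 in stage 3 to 129 and 107 in stage 8 and stood at 380.1 and 387 in stage 11. *Cox7a2* kept its stage means within a 1.92-fold range, with 9 of 10 neighbouring pairs overlapping.

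The swap between isoforms can be read within a stage as the testis isoform's share of the UMIs of its pair. In stage 1 of wild-type *Cox6b2* made up 5.00% ± 0.496 (SD, n = 2) of its pair, *Cox8c* 3.13% ± 0.00495 and *Cox7b2* 46.6% ± 2.48. In stage 11 the shares were 93.0% ± 0.714 for *Cox6b2*, 97.9% ± 0.728 for *Cox8c* and 99.8% ± 0.0778 for *Cox7b2*. Both libraries thus held nearly only the testis form of each pair in stage 11. Exact 95% binomial (Clopper-Pearson) intervals, which cover counting error only, were 93.1% to 93.8% and 92.1% to 92.8% for *Cox6b2* in the 2 libraries. They were 98.2% to 98.5% and 97.1% to 97.6% for *Cox8c*, and 99.7% to 99.9% and 99.8% to 99.9% for *Cox7b2*. The pairs passed an even share at different points, as *Cox7b2* was the larger part in both libraries from stage 4 on (58.1% ± 2.77), *Cox8c* from stage 9 (55.8% ± 4.72) and *Cox6b2* from stage 10 (74.7% ± 1.82).

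The sums of the pairs showed that the amounts exchanged were not equal. The mean sum of *Cox6b1* and *Cox6b2* in wild-type went from 615 CPM in stage 1 through 170.1 in stage 8 to 1561 in stage 11. That of *Cox8a* and *Cox8c* went from 894 through 91.1 to 2097, and that of *Cox7b* and *Cox7b2* from 324 through 119.6 to 1142. All 3 sums were lowest in stage 8 and highest in stage 11, although the *Cox7b* and *Cox7b2* sum of 121 in stage 3 was within the spread of its stage 8 value.

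**Figure D2:**
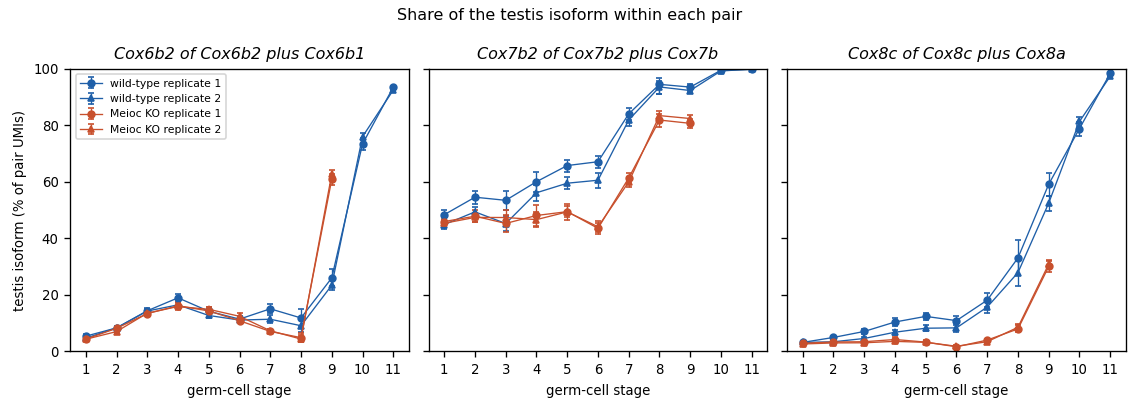
Testis isoform as a percentage of the UMIs of its pair against germ-cell stage, 1 line per library with exact 95% binomial intervals. *Meioc*-null libraries lie below wild-type for *Cox7b2* from stage 4 on and for *Cox8c* in every shared stage, and for *Cox6b2* below in stages 1 to 4, 7 and 8 and above in stages 5 and 9, with overlap in stage 6. The *Cox8c* share includes *Cox8a*, whose genotype difference chose the set, so it is a description only in every stage. *Cox8c* in stages 6 and 7 and *Cox6b2* in stage 8 were at or near the Sertoli cell level, which was itself higher in wild-type, and their shares there are not read as expression.

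The comparison between genotypes asked how these genes differed in *Meioc*-null cells placed in the same stage. Every *Meioc*-null cell was placed in a wild-type cluster, with no limit on its distance. The authors reported a spermatocyte cluster made almost only of *Meioc*-null cells, and such cells are within the stages here. Stage 7 held 1591 and 1136 *Meioc*-null cells against 704 and 720 wild-type ones. The part of this placing in the differences was not tested. Genes had to be detected in 25% of cells of at least 1 genotype, which left *Cox8c* untested in stages 6 and 7 and *Cox6b2* in stage 8, and the 8 members other than *Cox8a* gave 69 member-by-stage tests. In 64 of these both genotypes reached 25%, and 7 of the 64 passed (edgeR quasi-likelihood test, adjusted p under 0.05 and an absolute log2 fold change over 0.1), all in stages 8 and 9 and 6 of them higher in *Meioc*-null. The other 5, *Cox7b* in stages 7 to 9, *Cox8c* in stage 8 and *Cox6b2* in stage 7, entered through the genotype where the gene was detected in more cells, so their calls are given as values and support no count. Over all genes tested in those 9 stages, 13.1% passed and 7.02% passed as higher in *Meioc*-null. These shares include genes that entered through 1 genotype. With the littermate batch as a block, 16 of the 64 passed, beside 18.2% of all genes. The block leaves little spread to measure in 4 libraries, which limits its p-values further. Without stage 9 and the block the count was 2 of 57, beside 8.17%.

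In stages 1 to 6 the number of tests of the 8 members that passed in edgeR was 0 of 47, with 7 at an unadjusted p under 0.05 and 1 called by DESeq2. Of all genes, 0.0% passed in stage 1, 0.0231% in stage 2, 0.0256% in stage 3, 0.0% in stage 4, 0.0% in stage 5 and 1.69% in stage 6. Genes at an unadjusted p under 0.05 numbered 74 of 8253, 63 of 8674, 186 of 7804, 146 of 7122, 367 of 7067 and 602 of 5973. DESeq2 called 2, 3, 2, 0, 4 and 45 genes in these stages. With the littermate block 6 of the 47 passed, beside 2.39% of all genes over these stages, among them *Cox8c* in stages 2, 3 and 5, higher in wild-type (log2 0.40, 0.49 and 0.52). *Cox8c* in Sertoli cells was higher in wild-type too, as given above, and the part of that background in the result was not tested. In Sertoli cells 0 of 6 members, *Cox8a* included, and in myoid cells 0 of 7 passed in edgeR, with 0 at an unadjusted p under 0.05 and 0 called by DESeq2, beside 0.206% and 0.0762% of all genes. The filter left the 3 testis isoforms untested in Sertoli cells and *Cox7b2* and *Cox8c* in myoid cells. Without it *Cox8c* (log2 2.50) and *Cox6b2* (1.03) passed as higher in wild-type Sertoli cells and *Cox8c* (3.26) and *Cox7b2* (1.41) as higher in wild-type myoid cells, beside 0.757% and 0.397% of all genes.

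*Cox8a* in stage 6, the difference behind the choice of the set, measured 176 and 217 CPM in wild-type, against 509 and 649.8 in *Meioc*-null, 2.92 times higher. In stage 2 the groups still overlapped, at 741 and 919 against 729.8 and 931. From stage 4 on they did not, and the level in *Meioc*-null fell less along the stages. In stage 9 it was 284 and 321 against 61.4 and 65.1 in wild-type, 4.75 times higher, with log2 differences (wild-type over *Meioc*-null, as throughout) of -2.21 and -2.30 within the batches. In Sertoli cells the groups overlapped, at 625 and 692 in wild-type, against 616 and 774 in *Meioc*-null.

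*Cox7b*, which is not the gene whose levels chose the set, was also higher in *Meioc*-null. The members were chosen with earlier results of these data known, so *Cox7b* is not independent of that choice. In stage 6 it measured 78.8 and 114 CPM in wild-type, against 168 and 210.4 in *Meioc*-null, groups that did not overlap. The log2 difference of -0.97 ± 0.259 (SE) did not pass (edgeR adjusted p = 0.252). It passed with the littermate block (edgeR adjusted p = 5.89e-17), under the limit of that fit given above. The block also called it in stages 4 and 5, at -0.50 and -0.67.

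In each of the next stages *Cox7b* reached the detection limit in *Meioc*-null alone, with a UMI in 22.5%, 7.32% and 21.4% of wild-type cells against 53.3%, 42.2% and 58.1% in stages 7, 8 and 9. Entry through the higher genotype favours a difference, so the tests below are no independent support. In stage 7 it measured 24.1 and 28.4 in wild-type, against 67.3 and 85.7 in *Meioc*-null (log2 -1.50 ± 0.164, edgeR adjusted p = 6.99e-05). In stage 8 it measured 6.24 and 8.09 in wild-type, against 46.8 and 46.2, 5.92 times higher in *Meioc*-null (log2 -2.57 ± 0.229, adjusted p = 5.15e-12). In stage 9 it measured 22.0 and 24.6 in wild-type, against 85.5 and 93.1 (log2 -1.92 ± 0.142, adjusted p = 5.92e-25). Without the filter on low values the log2 differences were -1.53, -2.59 and -1.93, and all passed. The groups did not overlap in any of these stages, and the batches gave -1.96 and -1.92 in stage 9.

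*Cox6b1*, the remaining somatic counterpart, had smaller differences that did not pass. In stage 9 it measured 154 and 167 CPM in wild-type, against 171 and 193 in *Meioc*-null (log2 -0.18 ± 0.111, edgeR adjusted p = 0.169). Its log2 differences in stages 1 to 8 lay between -0.11 and 0.14. The stage 9 difference passed without *Meioc*-null replicate 1, at -0.29, and under coarser clusters, at -0.35.

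Among the testis isoforms *Cox6b2* differed most in stage 9, and its value depended on where the stages were divided. It measured 53.9 and 51.0 CPM in wild-type, against 265 and 325 in *Meioc*-null, 5.65 times higher, with no overlap (log2 -2.50 ± 0.122, edgeR adjusted p = 6.98e-37). Wild-type cells of the next stage held more than either, 365 and 433. With 15 neighbours, in place of 20 for clustering and 30 for placing cells, stage 10 held enough *Meioc*-null cells for a test. The log2 difference of *Cox6b2* was then -1.18 in stage 9 and -0.73 in stage 10. With coarser clusters, which put most wild-type cells of stages 9 and 10 together, it was -0.73, and all of these passed. *Cox7b* under the same groupings was at -1.18, -3.30 and -3.23.

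In stage 7 *Cox6b2* was instead lower in *Meioc*-null, 37.9 and 31.5 in wild-type against 17.0 and 22.8 (log2 0.85 ± 0.173, edgeR adjusted p = 0.00253). It reached the detection limit in wild-type alone, with a UMI in 31.7% of wild-type and 19.4% of *Meioc*-null cells, and without the filter the difference was 0.82 and passed. The Sertoli cell level given above moved in the same direction, and its part in the result was not tested.

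*Cox7b2* in stage 8 measured 107 and 118 CPM in wild-type, against 211 and 233 in *Meioc*-null, 1.84 times higher (log2 -0.88 ± 0.115, edgeR adjusted p = 3.81e-08). In stage 9 it measured 317 and 295 in wild-type, against 357 and 436 (log2 -0.38 ± 0.130, adjusted p = 0.00888), a call lost without wild-type replicate 2 (-0.36), *Meioc*-null replicate 2 (-0.19) or the filter on low values (-0.40). *Cox8c* in stage 9 measured 88.8 and 71.9 in wild-type, against 122 and 143 (log2 -0.74 ± 0.114, adjusted p = 1.97e-08). None of these groups overlapped, but under coarser clusters the stage 9 differences of *Cox7b2* and *Cox8c* turned to 0.15 and 0.12 and did not pass.

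The shares of *Cox7b2* and *Cox8c* were lower in *Meioc*-null. In stage 9 *Cox7b2* made up 92.9% ± 0.856 (SD, n = 2) of its pair in wild-type and 81.6% ± 1.21 in *Meioc*-null, 11.4 percentage points apart (12.8 and 9.91 within the batches). *Cox8c* made up 55.8% ± 4.72 and 30.4% ± 0.594, 25.4 points apart (29.1 and 21.6 within the batches), a share that includes *Cox8a* and is given without a test. With 15 neighbours these differences were 5.60 and 18.0 points and under coarser clusters 18.3 and 40.2. The levels of both isoforms lay the other way from their shares in the stages as divided here and the same way under coarser clusters. *Cox6b2* had the higher share in *Meioc*-null, 24.7% ± 1.84 in wild-type and 61.8% ± 1.33 in *Meioc*-null, a difference of -37.1 points that was -8.11 with 15 neighbours and -5.76 under coarser clusters. The groups did not overlap in any pair, and for *Cox6b2* and *Cox7b2* an exact two-sided permutation test of 2 against 2 libraries gave p = 0.333, the smallest it can give.

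*Cox6a1* was higher in *Meioc*-null in stage 8, at 129 and 107 CPM in wild-type against 159.9 and 151 (log2 -0.31 ± 0.114, edgeR adjusted p = 0.0229). This call was lost without wild-type replicate 2, *Meioc*-null replicate 1 or *Meioc*-null replicate 2, at -0.20, -0.31 and -0.31, and in DESeq2 (-0.29). In stage 9 it measured 157 and 142 in wild-type, against 180.4 and 218 (log2 -0.42 ± 0.113, adjusted p = 0.000794), a call lost without *Meioc*-null replicate 2 (-0.23) or with 15 neighbours (-0.28) and turned to 0.13 under coarser clusters. Neither call of *Cox6a1* thus held in every setting.

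*Cox7a2* was the 1 member called higher in wild-type in stage 9, at 787 and 799 against 543 and 664 (log2 0.39 ± 0.157, edgeR adjusted p = 0.0257). This call was lost without wild-type replicate 1 (0.43), wild-type replicate 2 (0.35) or *Meioc*-null replicate 1 (0.22), with 15 neighbours (0.27) and without the filter on low values (0.37). *Cox4i1* passed in no stage, with log2 differences between -0.33 and 0.22, but passed with the littermate block in stages 7, 8 and 9 (0.23, -0.28 and -0.33).

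Of the members other than *Cox8a* that reached the detection limit in both genotypes, 0 of 5 passed in stage 7 (edgeR, with 0 at an unadjusted p under 0.05 and 0 called by DESeq2), 2 of 5 in stage 8 (2 higher in *Meioc*-null, 1 called by DESeq2) and 5 of 7 in stage 9 (4 higher, 6 called by DESeq2). Of all genes 27.3% passed in stage 7, 49.5% in stage 8 and 58.2% in stage 9, and 16.1%, 26.1% and 29.7% passed as higher in *Meioc*-null. DESeq2 called 1293 of 6034, 2096 of 5826 and 2980 of 6234 genes. In stage 7, 2283 genes were at an unadjusted p under 0.05 (edgeR). The median log2 difference of those 7 members in stage 9 was -0.38, beside -0.0032 over all genes. It was -0.28 with 15 neighbours but 0.13 under coarser clusters and 0.12 when the listed genes could place cells. In each of these groupings 3 of the 7 passed, beside 2928 of 5844, 4478 of 6683 and 4451 of 6696 genes. Cells of stage 9 held a median of 10324 and 9822 UMIs in wild-type against 11727 and 14661 in *Meioc*-null and a median mitochondrial share of 7.81% and 8.01% against 7.52% and 7.46%, and the part of depth in these results was not tested.

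**Figure D3:**
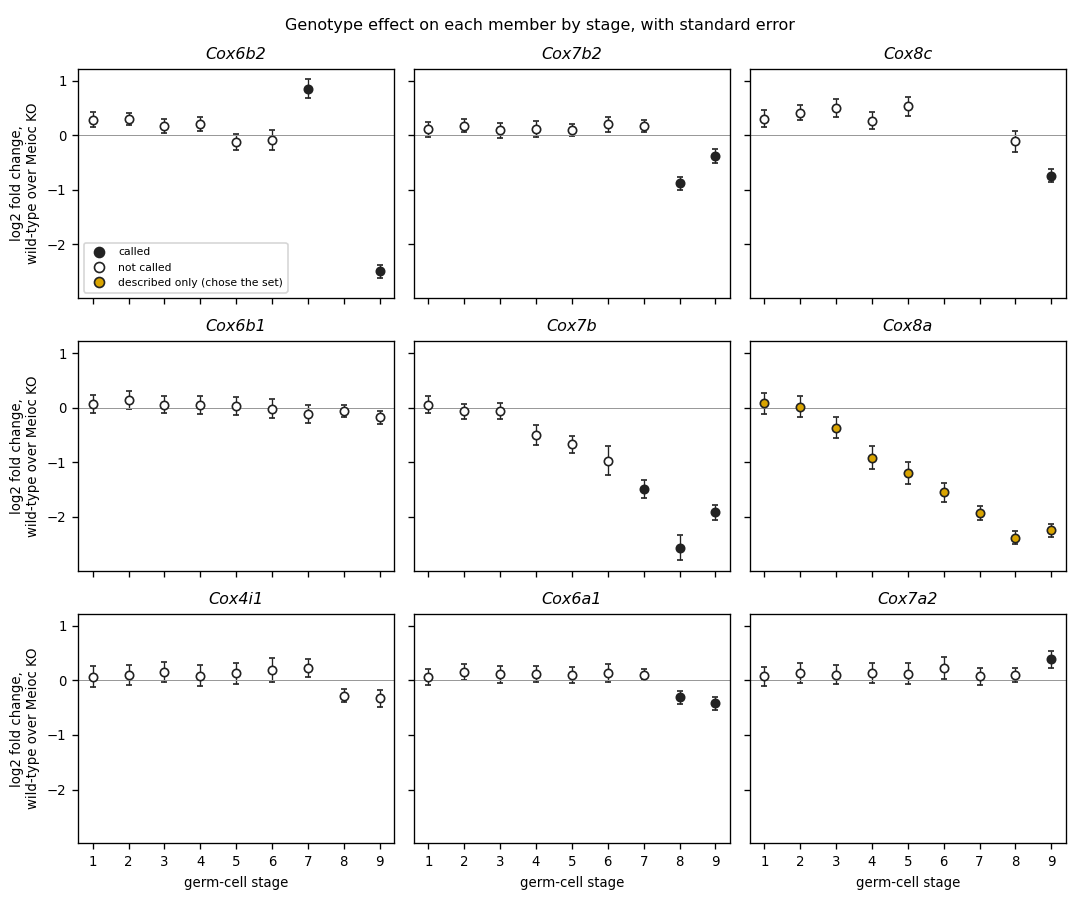
Log2 fold change (wild-type over *Meioc*-null, edgeR, with its standard error) of each member in stages 1 to 9, filled black where it passed, open where it did not, and gold for *Cox8a*, which is described only. *Cox7b* lies below 0 from stage 2 on, at only -0.06 and -0.05 in stages 2 and 3, and *Cox8a* from stage 3 on. *Cox6b1* stays near 0, and *Cox6b2* is at 0.85 in stage 7 and -2.50 in stage 9.

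**Figure D4:**
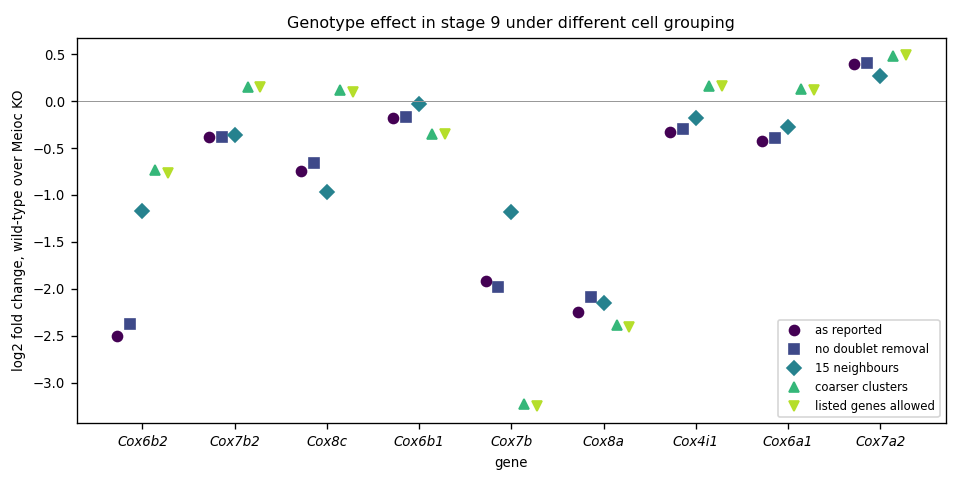
Log2 fold change (wild-type over *Meioc*-null) in stage 9 of each member under different ways of grouping the cells. *Cox8a* and *Cox7b* stay below -1, *Cox6b2* runs from -2.50 to -0.73, and *Cox7b2*, *Cox8c*, *Cox4i1* and *Cox6a1* are above 0 under coarser clusters. Under coarser clusters and with listed genes allowed, the cluster matched to stage 9 also holds nearly all wild-type cells of stage 10.

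Whether the genotype effect differed between spermatocyte-like and spermatogonia-like stages was tested as the mean log2 effect in stages 8 and 9 minus that in stages 1 to 6. Of the 8 members other than *Cox8a*, 7 passed (edgeR), 6 of them below 0. Below 0, the mean effect of stages 8 and 9 lay further towards *Meioc*-null than that of stages 1 to 6. Of 9634 genes in that fit 57.5% passed and 28.0% passed below 0. The fit had a term for each library, so its p-values measure the spread of stages within libraries, not that between pups. *Cox7b* had the contrast furthest from 0 among these 8, -1.84 ± 0.112 (edgeR adjusted p = 3.42e-18). *Cox8c* followed at -0.88 ± 0.0987 (adjusted p = 2.93e-10). Its log2 differences in stages 1 to 5, from 0.27 to 0.53, lay towards wild-type and enter this contrast, and its levels there were low. Stage 6 of *Cox8c*, not read as expression, enters it too, at 1.09 without the filter on low values. The Sertoli cell level of *Cox8c* was also higher in wild-type (17.0 and 19.3 against 3.26 and 3.36 CPM), and its part in the contrast was not tested. *Cox6b2* stood at -0.72 ± 0.148 (adjusted p = 6.92e-05) and *Cox7b2* at -0.70 ± 0.0557 (adjusted p = 1.60e-14). The contrast of *Cox6b2* averages opposite directions. Without the filter on low values it was 1.18 in stage 8, passing as higher in wild-type, and -2.52 in stage 9. Its stage 8 level is not read as expression but enters the contrast. *Cox6a1* (-0.43) and *Cox4i1* (-0.37) passed below 0 as well and *Cox7a2* (0.18) above 0, the last not without wild-type replicate 1 (0.09). *Cox6b1* did not pass, at -0.12 (adjusted p = 0.0703), but did without wild-type replicate 1 (-0.18) or *Meioc*-null replicate 2 (-0.18). With 15 neighbours *Cox6b2* and *Cox7a2* no longer passed, at -0.05 and 0.09. Under coarser clusters *Cox4i1* did not pass, at -0.09, *Cox6b1* did, at -0.17, and *Cox7b2* and *Cox6a1* passed at -0.24 and -0.14.

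The rest of complex IV was read from lists of 37 other genes, of which 26 were tested in stage 9, 10 were higher in *Meioc*-null and 4 in wild-type, with a median of -0.0069 on the log2 scale, beside the 58.2% of all genes that passed in that stage. Genes that entered through 1 genotype are included in the counts of these lists. Of 6 nuclear subunits tested, 3 were higher in *Meioc*-null and 2 in wild-type. *Ndufa4*, a subunit once assigned to complex I, measured 216 and 256 CPM in wild-type, against 598 and 693 in *Meioc*-null (log2 -1.45 ± 0.143, edgeR adjusted p = 1.79e-16). Its groups did not overlap. *Cox6c* (-0.65) and *Cox5b* (-0.47) were also higher in *Meioc*-null, and *Cox7a2l*, which takes part in joining complexes III and IV, was higher in wild-type (0.49).

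The mitochondrially encoded core subunits, 3 of 3 tested, did not pass in any single stage. Cells were kept only under a limit on mitochondrial UMIs, which bounds the summed level of mitochondrial genes before any test. Neither these tests nor the contrast below can therefore show how the 3 genes differ without that limit. *mt-Co1* in stage 9 measured 11630 and 13710 CPM in wild-type, against 11690 and 12390 in *Meioc*-null, with overlap. In the contrast of later against earlier stages, in which 57.5% of all genes passed, all 3 passed above 0, at 0.20 for *mt-Co1*, 0.36 for *mt-Co2* and 0.26 for *mt-Co3*.

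Of 15 assembly factors tested in stage 9, 5 were higher in *Meioc*-null and 2 in wild-type, beside the 58.2% of all genes. *Cox14*, which acts on the newly made core subunit 1, measured 159 and 161 in wild-type, against 78.1 and 79.9 in *Meioc*-null (log2 1.02 ± 0.109, edgeR adjusted p = 6.05e-15). *Cmc1* (-0.93), *Pet100* (-0.91) and *Cox20* (-0.88) went the other way. Both forms of the electron donor cytochrome *c* were higher in *Meioc*-null in stage 9, the somatic *Cycs* at 302 and 298 against 569 and 624 (log2 -0.99) and the testis form *Cyct* at 63.1 and 58.5 against 102 and 119 (log2 -0.87). In stage 11 of wild-type *Cycs* was at 80.8 and 102 and *Cyct* at 777 and 686 CPM.

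**Figure D5:**
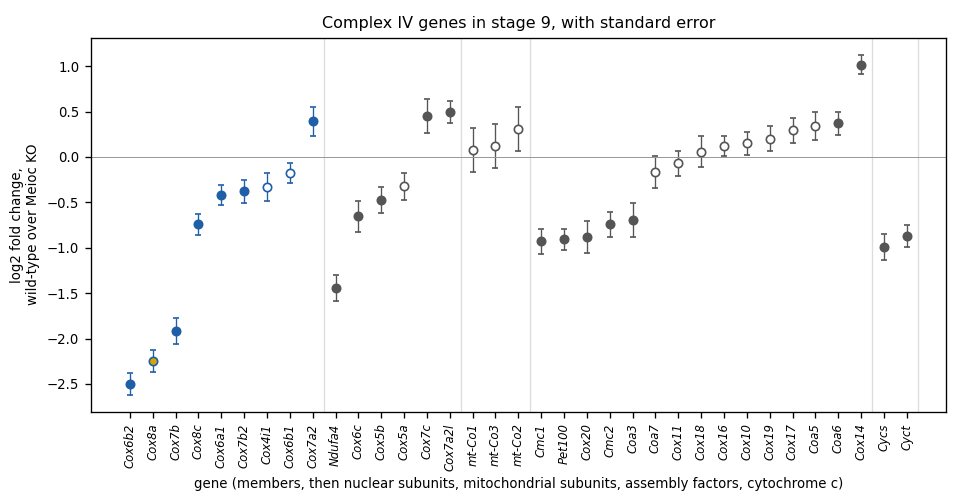
Log2 fold change (wild-type over *Meioc*-null, with its standard error) in stage 9 of the members and the other complex IV genes tested, filled where it passed and gold for *Cox8a*. *Cox6b2*, *Cox8a* and *Cox7b* lie lowest, then *Ndufa4*, and *Cox14* lies highest at 1.02.

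The genes most like each isoform were ranked by Pearson r of log2(CPM + 1) over the 22 wild-type sums of a library and stage, among 6457 genes. They were *Sephs2* (0.97), *Wdr54* (0.97) and *2700046G09Rik* (0.96) for *Cox6b2*. For *Cox7b2* they were *AA467197* (0.97), *Pdha2* (0.97) and *Gm15492* (0.96), and for *Cox8c* *March11* (0.98), *4933415F23Rik* (0.98) and *Riiad1* (0.98). For *Cox8a* they were *Gm45716* (0.98), *Snhg4* (0.98) and *Smagp* (0.98). The sums share libraries and stages, so these values are a description only.

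The libraries held 11986 to 16486 barcodes and 158291903 to 190455307 UMIs, and any pair of libraries shared 12 to 16 barcodes. *Meioc* was counted in both genotypes, at 494 and 495 CPM in wild-type, against 733 and 748 in *Meioc*-null in stage 9. Where its 3′ tags lie relative to the deleted part was not tested, so this level does not check the labels.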

How the data were processed

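Single-cell RNA libraries of 2 wild-type and 2 *Meioc*-null testes were deposited as UMI counts per gene and barcode, which the authors made with Cell Ranger 4.0.0 on mm10 (GRCm38) per the submitters' notes. The libraries held 158291903 to 190455307 UMIs. Barcodes with more than 1000 detected genes and less than 10% mitochondrial UMIs were kept, 6334 to 8494 a library, and 690 to 996 of the highest doublet scores were removed per library. Wild-type cells were clustered (scanpy 1.11.5, 2000 variable genes without the members and other complex IV genes, 30 components, 20 neighbours), and every cell took the commonest cluster of its 30 nearest wild-type cells. The rule that named clusters from markers was completed after the clusters were seen.

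Counts were summed per library and stage and tested with edgeR 4.0.16 (quasi-likelihood, TMM, genotype only, Benjamini-Hochberg over all genes of a stage) for genes detected in 25% or more of the cells of 1 of the genotypes. A gene was called at an adjusted p under 0.05 and an absolute log2 fold change over 0.1. DESeq2 1.42.0, other scaling, filters, groupings of cells, a littermate block and each library left out were alternatives. The submitters' protocol notes, not the sample titles, give each batch 1 littermate of each genotype. Deviations of same-numbered libraries correlated at 0.184 to 0.652 over the stages and somatic types, and the replicate numbers were taken as the batches. Any difference shared by same-numbered libraries, depth included, would give such a correlation, so it does not settle the pairing. On simulated counts for stage 6, 86% of changes of 1 and 100% of changes of 2 on the log2 scale were recovered (100 genes each, 5973 genes fitted), with 9 false calls. The simulation gave every gene the same dispersion, had no batch difference and changed only well-counted genes. It therefore does not measure what the real fits can recover, where *Cox7b* at -0.97 in stage 6 did not pass. Named were all 9 members, up to 4 genes called with the largest change in stage 9 per list of other complex IV genes, and the 3 genes most like each of 4 isoforms. Members and lists were chosen with earlier results of these data known.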

Additional observations from a re-analysis of the deposited data

Results flagged for a closer look

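The genotype effect of 7 members differed between the early-spermatocyte-like stages 8 and 9 and the spermatogonia-like stages 1 to 6, by a test of that difference itself in 1 edgeR fit over all 9 tested stages. That fit had a term for each library, so its p-values measure the spread of stages within libraries, not that between pups. The difference of log2 effects (wild-type over *Meioc*-null) was -1.84 for *Cox7b*, -0.88 for *Cox8c*, -0.72 for *Cox6b2*, -0.70 for *Cox7b2*, -0.43 for *Cox6a1*, -0.37 for *Cox4i1* and 0.18 for *Cox7a2*. Among all genes of that fit 57.5% differed in this way, so the count of members is read against that share. The value of *Cox6b2* averages opposite directions, 1.18 in stage 8 and -2.52 in stage 9 without the filter on low values. Its stage 8 level is not read as expression. With 15 neighbours *Cox6b2* (-0.05) and *Cox7a2* (0.09) did not pass, under coarser clusters *Cox4i1* (-0.09) did not, and *Cox7b2* and *Cox6a1* were then at -0.24 and -0.14. The Sertoli cell level of *Cox8c* was higher in wild-type, as were its levels in stages 1 to 5 on average. Stage 6, where *Cox8c* is not read as expression, was at 1.09 without the filter. The part of that background in its contrast was not tested. *Cox7a2* also did not pass without wild-type replicate 1 (0.09).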

How the results depend on the processing

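Of the 64 tests without *Cox8a* in which both genotypes reached the detection limit, 7 passed, and 5 to 9 did under the other settings that fitted all 64, except 16 with the block. With *Cox8a* outside stage 6 and tests entered through 1 genotype added, a total that supports nothing, the count was 14 of 77. That total became 26 with the paired littermate block and ran from 14 to 17 with 1 library left out, where the lone library of a group is assumed to vary like the other group. At under 5% mitochondrial UMIs the total was 5 of 49, but the 6 stages that could be fitted matched 3 clusters, stages 6, 7 and 8 being 1 cluster and stages 2 and 3 another, so calls of a shared cluster are counted more than once. The block changed no call other than the added ones, and left 7 members called in the contrast of stages. That contrast called 7 to 8 members with 1 library left out and 5 with 15 neighbours. The stage 11 shares moved by more than their spread to 92.0% (*Cox6b2*), 99.7% (*Cox7b2*) and 96.9% (*Cox8c*) at under 5% mitochondrial UMIs, and to 99.6% (*Cox7b2*) without doublet removal. Leaving out 1 library gave 92.5% to 93.5%, 99.8% to 99.9% and 97.4% to 98.4%. The stage 9 share differences ran over -38.4 to -35.8, 10.5 to 12.2 and 22.0 to 28.7 points in the same way. In stage 9 the log2 differences of *Cox7b2*, *Cox8c* and *Cox6a1* turned to 0.15, 0.12 and 0.13 under coarser clusters and to 0.15, 0.10 and 0.12 when the listed genes could place cells. The clusters matched to stage 9 in these 2 settings held 53.0% and 51.7% of its wild-type cells, together with 100% and 99.5% of those of stage 10. With 15 neighbours the matched cluster held 54.2% of the wild-type stage 9 cells. The cause of the turned signs was not tested. The stage 8 values of *Cox7b2* and *Cox6a1* at under 5% mitochondrial UMIs, 0.17 and 0.24, belong to that cluster of stages 6, 7 and 8 and are not those of stage 8 alone. At that limit stage 9 and the contrast of stages could not be fitted. Depth limits low levels most, such as *Cox7b* in stage 11, and 2 libraries a group limit every p-value.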
